A study of Drosophila melanogaster with 31 samples.

Results

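Loss of the repressor Capicua was examined in day 9 wing discs that also lacked Warts, in 6 of the 31 samples of the series. These were 3 cic wts libraries and 3 wts libraries, chosen by their labelled genotype and age, and all genes with enough counts were compared. The series holds 18 RNA-seq libraries in all, and its 13 ChIP-nexus samples were not analysed here. The wing disc is the larval epithelium that forms the adult wing, its hinge and the notum (the back of the thorax).

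Larvae of both groups were heterozygous for ubxflp, a ubx-driven flp recombinase, on a y w background. In the wts group the Minute chromosome FRT82B M(3) ubiGFP, which carries a GFP marker, lay over FRT82B wts149. In the cic wts group it lay over an FRT82B chromosome with both the cicQ474X and the wts149 alleles. Recombination at FRT82B gives mutant clones without the GFP marker, so each disc was a mosaic of homozygous mutant clones and slow-growing Minute heterozygous cells. Discs were dissected by hand from 12 to 35 3rd instar larvae a library, reared at 25 degrees on normal food, so every value averages over pooled animals and over clone and non-clone tissue. No control group and no group mutant for cic alone was available at day 9. The labels number the replicates but do not say that the pools came from separate crosses, so p-values reflect only how far these pools differ, which may be technical.

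Capicua (Cic) is an HMG-box repressor that keeps Ras/EGFR output genes silent until MAP kinase signalling relieves it. Warts (Wts) is the Hippo pathway kinase that holds the growth-promoting co-activator Yorkie (Yki) in check, and wing discs lacking it overgrow. In both day 9 groups Wts was lost, so the comparison asks what Cic still restrained in Hippo-deficient tissue, the question that the title of the series raises for Ras signalling.

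The 6 libraries held 19297558 to 21621985 counts, and 9004 of the 17373 genes in the table were tested. Values are counts scaled to library size (CPM), as mean ± SD of 3 libraries where a mean is given, and differences are log2 fold changes of cic wts over wts ± standard error. On the first principal component of the 6 libraries, with 53.4% of the variance, the genotypes separated. On that component wts replicate 1 lay farthest out among the wts libraries, at -36.85 against -19.54 and -18.01, and on the second, with 19.1%, it lay at 23.22 against -22.52 and -9.89. The 14 wing disc markers summed to 3310 to 3410 CPM in wts discs, against 3040 to 3260 CPM in cic wts discs, and none was at 0. Salivary gland markers summed to at most 1.97 CPM, with ng1, ng2 and ng3 at 0 throughout. Fat body markers summed to 99.1 to 127 CPM except in wts replicate 2, with 393 CPM, of which the storage protein gene Lsp1beta gave 115 CPM. Hemocyte markers spanned 734 to 1040 CPM in wts discs, against 547 to 760 CPM in cic wts discs, and neuronal and glial markers 686 to 743 CPM in all 6. The male dosage compensation genes summed to 955, 907 and 718 CPM in wts discs, against 665, 639 and 450 CPM in cic wts discs, which did not overlap, and 0 of these 5 genes passed the test; their part in the results was not tested.

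The mutated genes were read first. The cic transcript (release 6 coordinates, chromosome 3R, 20252770 to 20303942) measured 686, 748 and 705 CPM in wts discs, against 516, 509 and 469 CPM in cic wts discs. It fell by 0.52 ± 0.12 on the log2 scale (adjusted p = 0.012; this and every adjusted p below come from edgeR, quasi-likelihood F test, Benjamini-Hochberg over all genes tested), a call lost without cic wts replicate 3 (adjusted p = 0.056). The wts transcript, mutant in both groups, measured 273, 258 and 278 CPM against 224, 224 and 227 CPM and did not pass (-0.26 ± 0.08, adjusted p = 0.069). A nonsense allele that is still transcribed adds reads to its gene, and so does the heterozygous tissue, so neither level identifies a genotype by itself.

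At an adjusted p under 0.05, 621 genes were called, 6.9% of those tested. Of these, 260 rose (2.89%) and 361 fell (4.01%), and the median difference over all genes tested was 0.005. These shares are the background for the list counts below. Differences over 2-fold were mostly falls, with 157 of 219. Nearly every called gene, 619 of 621, had groups that did not overlap, against 30.5% of all genes tested. The same libraries gave the calls and the overlap, so this is a description and no separate support for the calls. The count fell by more than 1.5 times without wts replicate 1 (324), cic wts replicate 1 (392), cic wts replicate 2 (307) or cic wts replicate 3 (412). Of the 621 genes, 255 were called in all 6 fits that left out 1 library, 59 in none. A call described below held in all 6 unless the paragraph says otherwise.

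**Figure D1:**
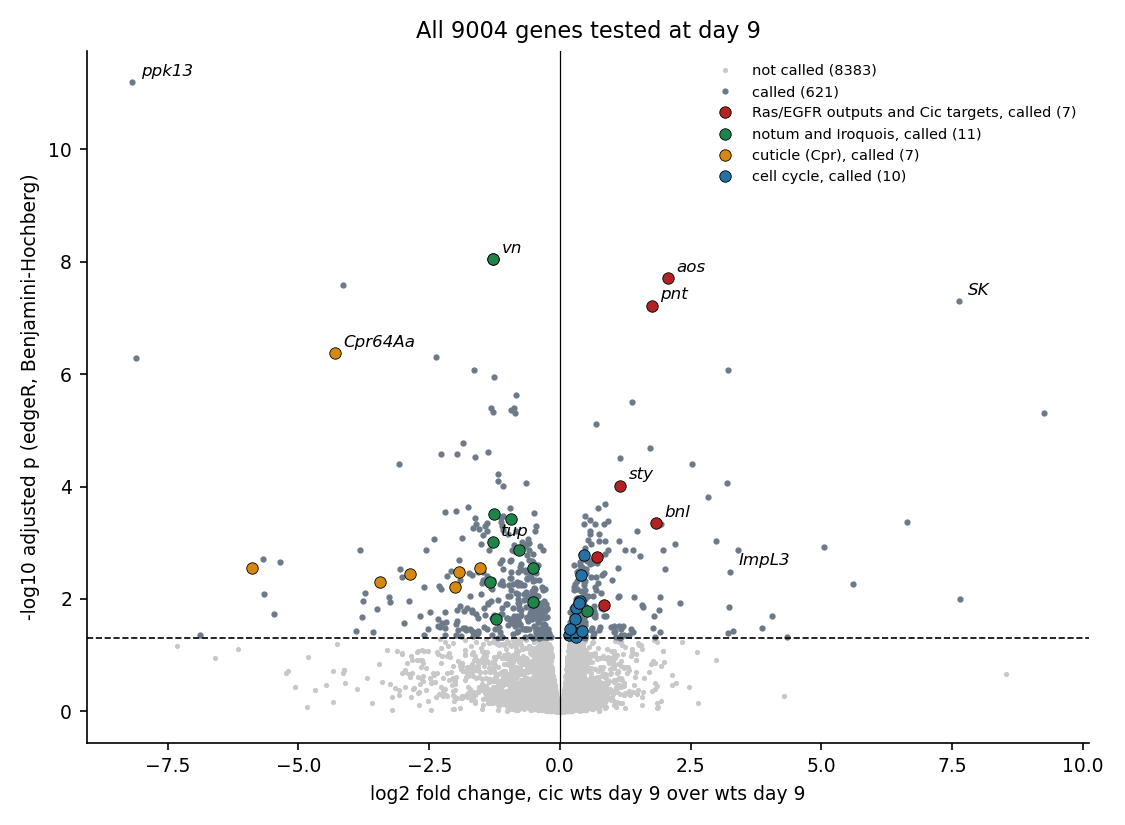
Each point is a gene, with the log2 fold change of cic wts over wts at day 9 on the x axis and the negative log10 of the adjusted p on the y axis; the dashed line is the threshold. The 7 called Ras/EGFR outputs and Cic targets are red, except vn, which is also a notum gene and is drawn green, and the 7 called cuticle genes, in orange, all lie to the left.

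Most of these genes had a difference of the same sign at day 5. On that day, in libraries that share nothing with day 9, 262 genes (2.91%) differed between cic wts and wts discs, 94 up (1.04%) and 168 down (1.87%). Called on both days were 187 genes, 30.1% of the day 9 calls and 71.4% of the day 5 calls, and all 187 had the same direction. Of the 621 day 9 calls, 583 (93.9%) had the same sign at day 5, against 64.3% of all genes tested, and 531 had the larger difference at day 9. These genes were picked by their day 9 values, which by itself favours a larger difference on that day, so the count shows no growth with age.

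**Figure D2:**
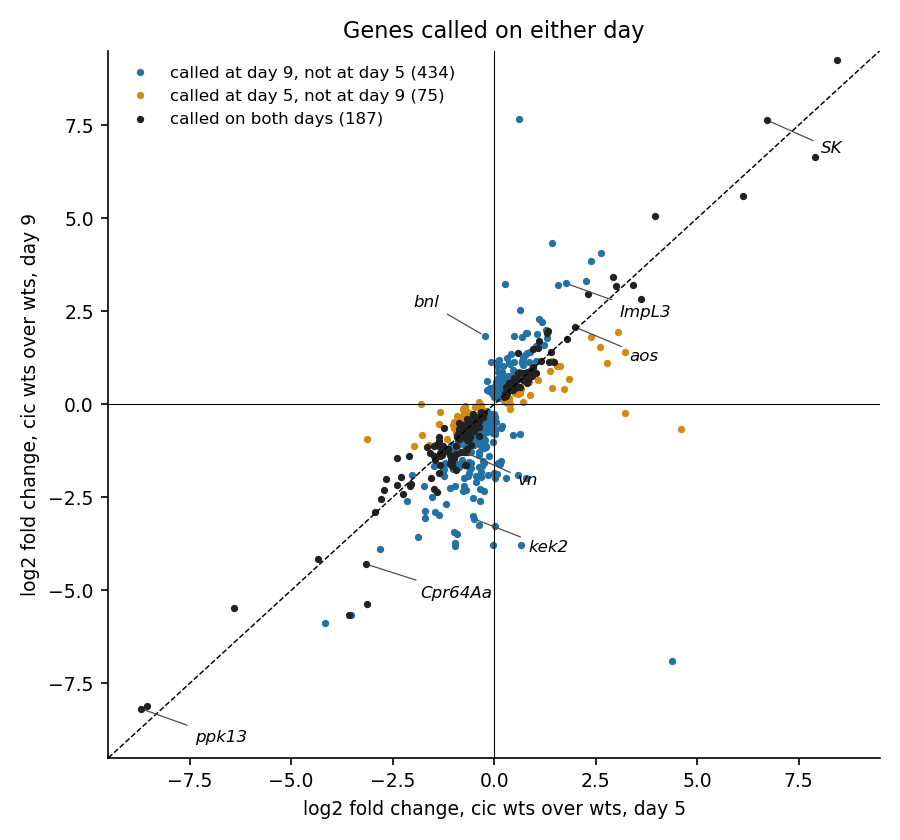
Each point is a gene called on either day, with its log2 fold change of cic wts over wts at day 5 on the x axis and at day 9 on the y axis; the dashed line marks equal values. Of the 621 genes called at day 9 (blue and black), which were picked by their day 9 values, 531 lie farther from 0 on the y axis than on the x axis. The gene bnl lies near 0 at day 5 and at 1.84 at day 9.

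Several Ras/EGFR outputs that feed back on the pathway rose in cic wts discs, and others did not pass. Argos, the secreted inhibitor of EGFR ligands (aos, 3L, 16470386 to 16483650), measured 38.3, 44.6 and 42.8 CPM in wts discs, against 183, 181 and 165 CPM in cic wts discs. Every cic wts library was thus far above every wts library, and aos rose by 2.07 ± 0.11 (adjusted p = 2e-08). Pointed (pnt, 3R, 23290231 to 23346167), the ETS factor that carries the nuclear response to MAP kinase, measured 48.9, 41.5 and 45.5 CPM against 149, 151 and 159 CPM, a rise of 1.76 ± 0.11 (adjusted p = 6e-08). Both genes had risen by similar amounts at day 5, by 2.00 and 1.79.

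Further inhibitors of receptor tyrosine kinase signalling followed. Sprouty (sty, 3L, 3401153 to 3424935) stood at 179, 169 and 173 CPM in wts discs, against 389, 404 and 364 CPM in cic wts discs (1.15 ± 0.14, adjusted p = 9.6e-05). The ERK phosphatase gene Mkp3 stood at 76.2, 83.0 and 81.0 CPM against 127, 145 and 123 CPM (0.72 ± 0.12, adjusted p = 0.0018). The groups were well apart for both genes, with cic wts replicate 2 the highest library. Socs36E, a suppressor of JAK/STAT and EGFR signalling, rose by 0.85 ± 0.19 (adjusted p = 0.013), from 90.3 to 112 CPM in wts to 172 to 194 CPM in cic wts discs, and its call was lost without wts replicate 1 or cic wts replicate 2.

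Of the 18 listed Ras/EGFR outputs and Cic targets, 15 were tested: 6 rose, 1 fell and 8 did not pass, with a median of 0.32 against 0.005 over all genes. The gap genes tll and hkb and the neural gene ind, which Cic represses in the embryo, had too few counts to be tested. The genes that did not pass ranged from -1.41 to 0.86. They included the ETS gene Ets21C (0.86 ± 0.74, adjusted p = 0.61), the EGFR inhibitor gene kek1 (0.32 ± 0.16, adjusted p = 0.29), the ETS antagonist gene edl (-0.07 ± 0.10, adjusted p = 0.80), the ETS repressor gene aop (-0.20 ± 0.09, adjusted p = 0.22) and the ligand-processing protease gene rho (-0.78 ± 0.34, adjusted p = 0.21). The Cdc25 phosphatase gene stg was lower in every cic wts library (405 to 434 CPM) than in any wts library, but the wts libraries themselves spread from 566 and 698 CPM to 2070 CPM in replicate 1, and it did not pass (-1.41 ± 0.41, adjusted p = 0.051). It passed when wts replicate 2 or wts replicate 3 was left out, which raised the falls in the list from 1 to 2.

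The gene that fell was vein (vn, 3L, 5813338 to 5845664), which encodes a neuregulin-like EGFR ligand made in the notum. It measured 114, 112 and 112 CPM in wts discs, against 49.2, 46.5 and 43.6 CPM in cic wts discs, groups with very little spread, and fell by 1.28 ± 0.06 (adjusted p = 9.1e-09). Among 25 pathway components there were 2 rises, 1 fall and 22 that did not pass, with a median of 0.06. RasGAP1, which switches Ras off, rose by 0.53 ± 0.08 (adjusted p = 0.0009). The neurofibromin gene Nf1, another Ras GTPase-activating protein, rose by 0.47 ± 0.12 (adjusted p = 0.029) and was called without wts replicate 2, but not without any 1 of the other 5 libraries. The fall was cic itself, whose call was lost without cic wts replicate 3. Values for Egfr (0.06 ± 0.13, adjusted p = 0.88) and for the ligand gene spi (0.51 ± 0.22, adjusted p = 0.19) did not pass.

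**Figure D3:**
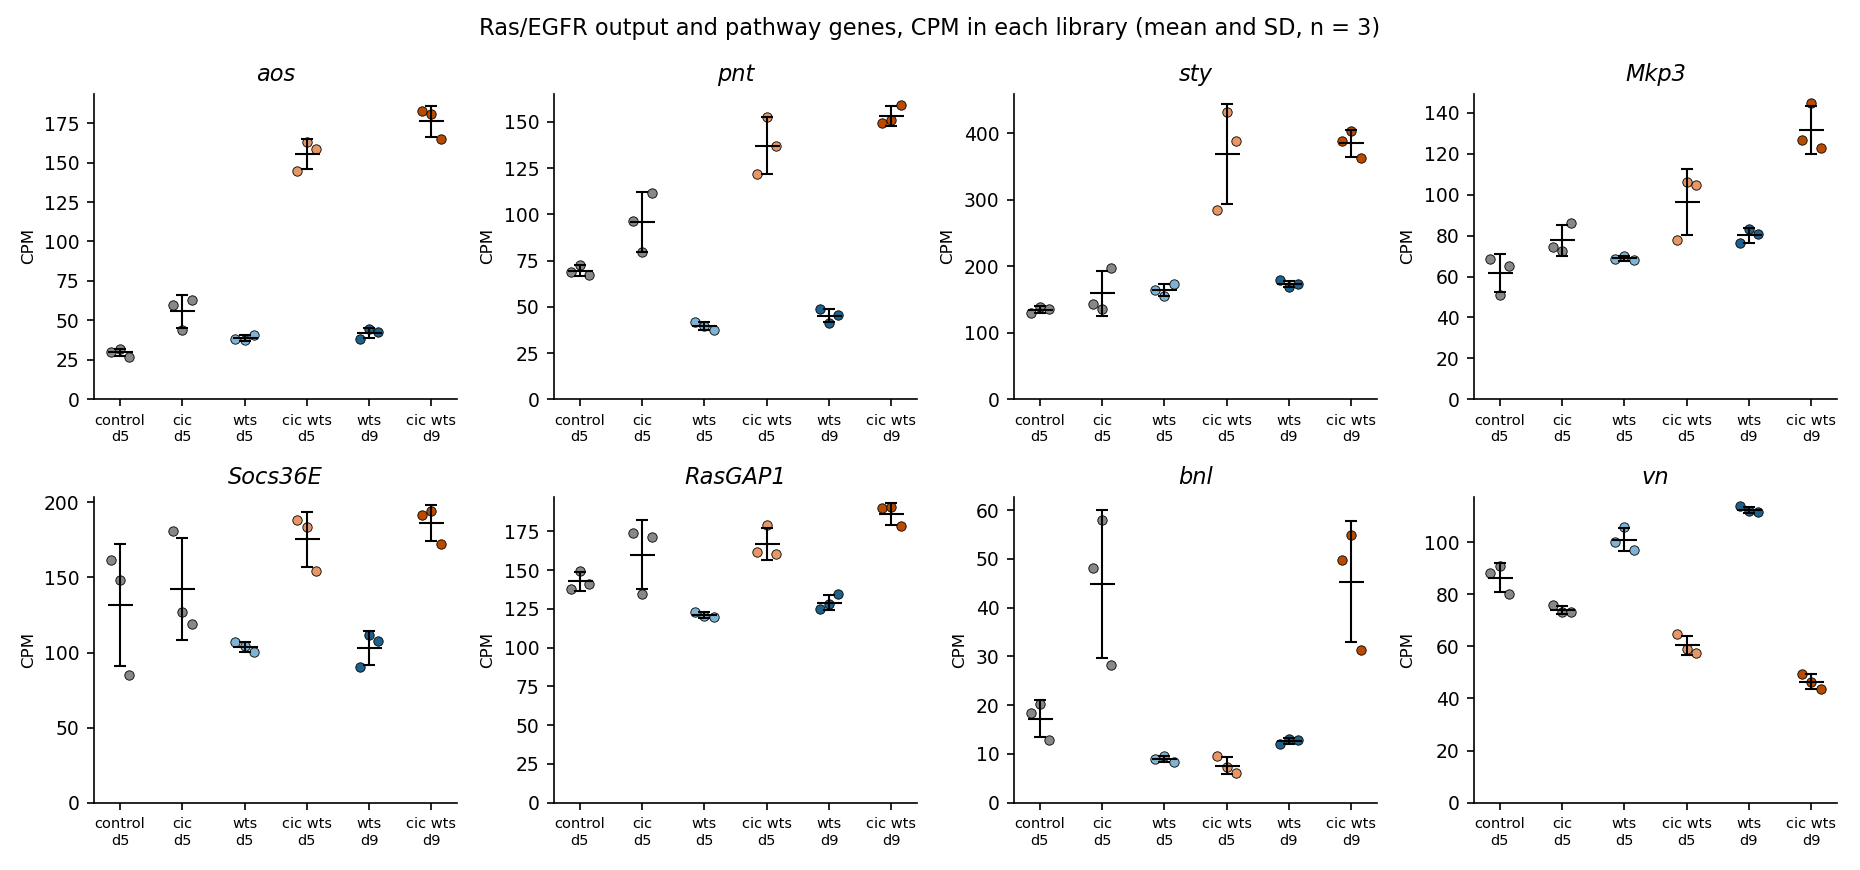
CPM (y axis, from 0) of 8 Ras/EGFR genes in each RNA-seq library of the 6 groups (x axis), with bars for mean and SD, n = 3. At day 9 the wts (dark blue) and cic wts (dark orange) libraries do not overlap in any panel. Only for vn does cic wts lie lower. For bnl, wts and cic wts separate at day 9 and overlap at day 5, and on day 5 every cic library lies above every control library.

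FGF signals changed in both directions. Branchless (bnl, 3R, 19794073 to 19836817), the FGF that attracts tracheal branches, measured 12.1, 13.0 and 12.9 CPM in wts discs, against 49.7, 54.9 and 31.3 CPM in cic wts discs. Cic wts replicate 3 was the lowest of its group but still well above the wts libraries, and bnl rose by 1.84 ± 0.26 (adjusted p = 0.00044). Pyramus (pyr), an FGF8-like ligand of the receptor Heartless, measured 25.3, 23.3 and 23.4 CPM against 61.7, 73.9 and 51.2 CPM and rose by 1.38 ± 0.12 (adjusted p = 3.1e-06). The nearby gene thisbe (ths), which encodes the other Heartless ligand, fell by 0.76 ± 0.12 (adjusted p = 0.0014), from 136 to 191 CPM to 89.1 to 96.9 CPM. The receptor for Branchless, breathless (btl), fell by 1.09 ± 0.15 (adjusted p = 0.00033), from 9.68 ± 1.06 to 4.54 ± 0.218 CPM. The FGF adaptor gene stumps fell by 0.30 ± 0.08 (adjusted p = 0.035) and was called only when wts replicate 2, of the 6 libraries, was left out. Of 10 FGF and PDGF/VEGF-like ligands and receptors 2 rose and 3 fell, with a median of 0.08.

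Beside btl stood other tracheal genes. The master regulator gene trachealess (trh) fell by 0.65 ± 0.08 (adjusted p = 8.6e-05), and the related bHLH-PAS gene dysfusion (dys) by 0.89 ± 0.25 (adjusted p = 0.042), a call lost without any 1 of the 6 libraries. The 9 tracheal markers, which include the ligand gene bnl, summed to 2340 to 2590 CPM in wts discs, against 2580 to 2790 CPM in cic wts discs. The summed level did not fall, but most of it was the chitin deacetylase genes serp and verm, so it says little about lower genes such as btl and trh. The part of tracheal cell number in these values was not tested.

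Genes of the notum and proximal disc fell together. Of 14 tested, 9 fell, 2 rose and 3 did not pass, with a median of -0.65 against 0.005 over all genes. At day 5, 7 had fallen and 0 had risen. The LIM-homeodomain gene tailup (tup) measured 41.1, 22.6 and 27.2 CPM in wts discs, against 14.3, 10.1 and 12.8 CPM in cic wts discs and fell by 1.29 ± 0.20 (adjusted p = 0.00097). The GATA factor gene pannier (pnr), which specifies the medial notum, measured 38.0, 29.6 and 33.9 CPM against 17.3, 19.6 and 16.1 CPM and fell by 0.94 ± 0.13 (adjusted p = 0.00038). Both genes were lower in every cic wts library, although the wts libraries spread widely for tup, with replicate 1 the highest.

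The Dorsocross T-box genes, neighbours on 3L, fell by nearly equal amounts. Doc2 measured 35.3, 31.6 and 31.0 CPM in wts discs, against 13.8, 13.8 and 13.5 CPM in cic wts discs (-1.25 ± 0.17, adjusted p = 0.00031). Doc3 fell by 1.34 ± 0.26 (adjusted p = 0.0051) and Doc1 by 1.22 ± 0.30 (adjusted p = 0.023), the last called only when wts replicate 3, of the 6 libraries, was left out. The Iroquois homeobox genes, which divide notum from hinge and are also on 3L, were araucan (ara, -0.78 ± 0.13, adjusted p = 0.0014), caupolican (caup, -0.51 ± 0.11, adjusted p = 0.011) and mirror (mirr). Caup lost its call without wts replicate 3 or cic wts replicate 2, and mirr did not pass (-0.14 ± 0.15, adjusted p = 0.70). The Pax gene eyegone (eyg) fell by 0.51 ± 0.09 (adjusted p = 0.0028). The rises were of u-shaped (ush), a co-factor that restrains Pannier (0.51 ± 0.12, adjusted p = 0.017), and of the dorsal selector gene apterous (ap, 0.31 ± 0.09, adjusted p = 0.040). The call for ush held only without wts replicate 3 or cic wts replicate 3, and that for ap only without wts replicate 2 or cic wts replicate 3.

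Adult muscle progenitors lie beneath the notum epithelium, and the summed level of their markers was lower in cic wts discs, although most of the markers did not pass singly. The 10 markers summed to 572, 530 and 595 CPM in wts discs, against 469, 424 and 381 CPM in cic wts discs, groups that did not overlap. This was not particular to them: the wing disc and dosage compensation sums were also lower without overlap. Of all genes tested, 15.4% were lower in cic wts discs without overlap. Differentiated muscle markers summed to 1030 to 1060 CPM against 995 to 1130 CPM, which overlapped. Of the 10, 7 did not pass and 3 fell: Him (-1.38 ± 0.31, adjusted p = 0.012), stumps, and the muscle transcription factor gene Mef2 (-0.26 ± 0.06, adjusted p = 0.021). Him was lost without cic wts replicate 2 or cic wts replicate 3, Mef2 was called only without wts replicate 2 or wts replicate 3, and stumps only without wts replicate 2. Without cic wts replicate 2 or cic wts replicate 3, 0 of the 10 were called. The defining gene twist (twi) stood at 21.5 to 25.0 CPM against 14.1 to 20.6 CPM and did not pass (-0.47 ± 0.15, adjusted p = 0.078). In bulk discs, fewer cells of a type and less RNA per cell cannot be told apart, for muscle progenitors and notum alike.

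**Figure D4:**
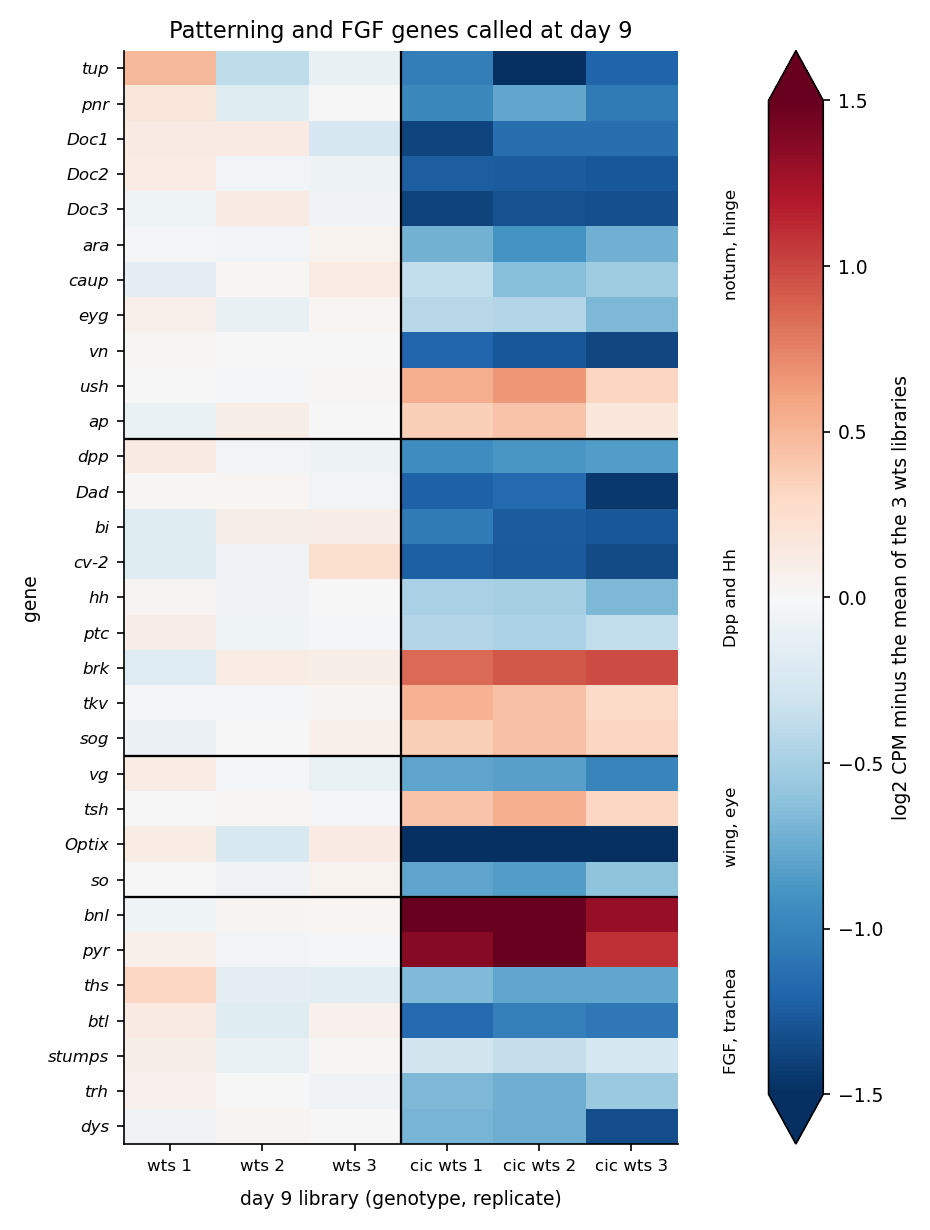
Rows are the called patterning, FGF and tracheal genes, and columns the 6 day 9 libraries; colour is log2 CPM minus the mean of the 3 wts libraries, blue for lower and red for higher, and values beyond 1.5 in size take the end colour. Among the wts columns tup and ths are highest in replicate 1, and among the cic wts columns bnl and dys are lowest in replicate 3.

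Several components and targets of Dpp, the BMP morphogen that patterns the disc from its anterior-posterior boundary, differed as well. The ligand gene dpp (2L, 2428372 to 2459823) measured 125, 112 and 109 CPM in wts discs, against 60.3, 63.2 and 64.3 CPM in cic wts discs and fell by 0.88 ± 0.08 (adjusted p = 4e-06). The inhibitory Smad gene Dad, a target induced by Dpp, measured 149, 150 and 142 CPM against 63.7, 65.4 and 53.9 CPM and fell by 1.27 ± 0.10 (adjusted p = 1.1e-06). Another target, the T-box gene bifid (bi, also called omb), fell by 1.19 ± 0.14 (adjusted p = 5.9e-05), and the BMP-binding protein gene cv-2 by 1.29 ± 0.12 (adjusted p = 4.7e-06).

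Brinker (brk), the repressor of Dpp targets that Dpp signalling turns off, went the other way. It measured 202, 249 and 245 CPM in wts discs, against 415, 440 and 456 CPM in cic wts discs, clear of overlap, and rose by 0.91 ± 0.15 (adjusted p = 0.0013). The receptor gene tkv (0.42 ± 0.12, adjusted p = 0.047) and the BMP antagonist gene sog (0.37 ± 0.09, adjusted p = 0.023) also rose; tkv lost its call without any 1 of the 6 libraries, and sog kept it only without wts replicate 3 or cic wts replicate 3. The target salm did not pass (0.24 ± 0.20, adjusted p = 0.58). In all, 3 of 19 Dpp genes tested rose and 4 fell, with a median of 0.00.

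In the Hedgehog list of 15 genes, 4 fell and 0 rose, with a median of -0.06, against 4.01% that fell and 2.89% that rose over all genes tested. Besides dpp these were the ligand gene hh, at 61.0, 57.1 and 59.3 CPM against 42.2, 41.9 and 37.0 CPM (-0.55 ± 0.12, adjusted p = 0.0087), rdx (-0.35 ± 0.07, adjusted p = 0.0061), which encodes an adaptor for degradation of the effector Ci, and the receptor and target gene ptc (-0.43 ± 0.12, adjusted p = 0.038). The call for ptc was lost without any 1 of the 6 libraries.

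The wing selector gene vestigial (vg, 2R, 12884201 to 12899385) measured 143, 131 and 123 CPM in wts discs, against 76.5, 75.3 and 66.5 CPM in cic wts discs and fell by 0.86 ± 0.08 (adjusted p = 5e-06). It was the only fall among 13 wing selector genes, whose median was 0.01. The proximal zinc-finger gene teashirt (tsh) and ap were the 2 rises there; tsh (0.43 ± 0.11, adjusted p = 0.022) was called only when cic wts replicate 3, of the 6 libraries, was left out, and ap only without wts replicate 2 or cic wts replicate 3. Among 13 retinal determination genes, named for their role in the eye, 3 fell and 1 rose, with a median of -0.35. The Six-family gene Optix measured 16.6, 13.1 and 16.7 CPM against 4.65, 4.60 and 3.54 CPM (-1.85 ± 0.19, adjusted p = 1.7e-05), and its relative sine oculis (so) fell by 0.74 ± 0.15 (adjusted p = 0.0057). The others were eyg and tsh, the latter with the losses just given.

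Of 18 vein and intervein genes 2 rose and 3 fell, with a median of -0.10. Over all genes tested 2.89% rose and 4.01% fell, the background for this list and for the Notch list. Shifted (shf), a WIF-domain protein that helps Hedgehog spread, rose by 0.75 ± 0.11 (adjusted p = 0.00069), and the others were aos, cv-2, ara and caup. The call for caup was lost without wts replicate 3 or cic wts replicate 2. Of 26 Notch genes 1 rose and 3 fell, with a median of -0.14. The bHLH repressor gene deadpan (dpn) fell by 1.56 ± 0.23 (adjusted p = 0.00058), at 2.75 ± 0.431 against 0.93 ± 0.121 CPM. The Bearded-family genes E(spl)m2-BFM (-0.98 ± 0.20, adjusted p = 0.0057) and E(spl)m6-BFM (-1.13 ± 0.27, adjusted p = 0.019) fell too, the second called only without wts replicate 1 or cic wts replicate 1. The Notch ligand gene Ser rose by 0.36 ± 0.10 (adjusted p = 0.040) but lost its call without any 1 of the 6 libraries.

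Yki targets showed no common direction. Of 20 tested, 3 rose, 3 fell and 14 did not pass, with a median of -0.01. The feedback gene expanded (ex) stood at 2520, 2780 and 2660 CPM in wts discs, against 2630, 2610 and 2600 CPM in cic wts discs, overlapping groups (-0.02 ± 0.10, adjusted p = 0.95). Kibra (-0.19 ± 0.11, adjusted p = 0.37), the apoptosis inhibitor gene Diap1 (0.07 ± 0.06, adjusted p = 0.62), CycE (-0.01 ± 0.10, adjusted p = 0.98) and dally (0.01 ± 0.08, adjusted p = 0.98) did not pass either. The relaxin-like hormone gene Ilp8, which delays metamorphosis when discs are damaged or overgrown, stood at 75.8, 56.3 and 56.6 CPM against 111, 155 and 106 CPM; the groups did not overlap, and it did not pass (0.98 ± 0.35, adjusted p = 0.11). The falls were vg, the Golgi kinase gene four-jointed (fj, -0.65 ± 0.14, adjusted p = 0.0078) and the glypican gene dlp (-0.43 ± 0.09, adjusted p = 0.0090), and without wts replicate 1 only vg of these was called. The rises were Ser and the cytokine genes os and upd3, but Ser and upd3 lost their calls without any 1 of the 6 libraries, which left 1 rise each time. The other 7 tested, Mer, wg, dm (Myc), E2f1, crb, chinmo and Dl, ranged from -0.15 to 0.07 and did not pass (smallest adjusted p = 0.61).

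Those cytokines head the JAK/STAT pathway, where 4 of 13 genes rose and 0 fell, with a median of 0.15. The gene os, which encodes Unpaired 1, measured 17.2, 20.3 and 21.8 CPM in wts discs, against 31.9, 32.9 and 34.5 CPM in cic wts discs (0.74 ± 0.11, adjusted p = 0.00093). From the same cluster on X, upd3 measured 4.41, 4.53 and 4.14 CPM against 9.68, 10.4 and 9.99 CPM (1.20 ± 0.31, adjusted p = 0.030), and lost its call without any 1 of the 6 libraries. The remaining ligand gene, upd2, had groups that did not overlap and did not pass (1.58 ± 0.51, adjusted p = 0.077). The transcription factor gene Stat92E rose by 0.29 ± 0.06 (adjusted p = 0.0053), and Socs36E, described above, is a feedback target. Without wts replicate 1 or cic wts replicate 2, 2 of the 4 were called.

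Of 23 Hippo components 1 rose and 1 fell, with a median of -0.09, against 2.89% that rose and 4.01% that fell over all genes tested. Tgi, a partner of Scalloped that limits Yki, rose by 0.43 ± 0.10 (adjusted p = 0.016), lost without wts replicate 3 or cic wts replicate 1. Lowfat (lft) fell by 0.40 ± 0.10 (adjusted p = 0.025) and was called only when wts replicate 2, of the 6 libraries, was left out.

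Some genes of DNA replication rose by small amounts. Among 47 cell cycle genes there were 10 rises and 0 falls, and 37 did not pass, against 2.89% that rose over all genes tested. Of the 47, 41 were above 0, and the median was 0.17. That sign was not particular to this list: 84 of 87 cytosolic and 55 of 72 mitochondrial ribosomal protein genes were above 0, but 5 of 23 Hippo components. The origin recognition gene Orc1 measured 40.2, 42.3 and 44.3 CPM in wts discs, against 57.2, 55.2 and 61.5 CPM in cic wts discs (0.46 ± 0.08, adjusted p = 0.0017). Mcm2, a subunit of the replicative helicase, measured 144, 166 and 170 CPM against 205, 213 and 213 CPM (0.39 ± 0.07, adjusted p = 0.0038). Most of the others that rose belong to the same machinery: Mcm5, Mcm7 and dpa (Mcm4) of the helicase, dup (Cdt1) and geminin of licensing, and the ribonucleotide reductase gene RnrS, at 0.20 to 0.38. The count of rises depended on the libraries: it was 3 without wts replicate 1, 6 without wts replicate 2, 4 without cic wts replicate 2 and 3 without cic wts replicate 3, and Orc1 and Mcm2 were called in all 6 fits. RnrS lost its call without wts replicate 1, dup without wts replicate 2 or cic wts replicate 3, and Mcm5 without wts replicate 1 or cic wts replicates 2 or 3. Dpa and geminin lost theirs without wts replicates 1 or 2 or cic wts replicates 2 or 3, and Mcm7 was called only when wts replicate 3, of the 6 libraries, was left out. The remaining rises, the mitotic kinesin gene Klp61F and the retinoblastoma-family gene Rbf2, were called only without cic wts replicate 1 and only without wts replicate 2, respectively.

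Of 17 cell death genes 1 rose and 2 fell, with a median of -0.05. Over all genes tested 2.89% rose and 4.01% fell, the background for this list and for the JNK list. The caspase gene Damm stood at 0.106, 0.104 and 0.0963 CPM in wts discs, against 1.36, 1.03 and 1.04 CPM in cic wts discs, a low gene that rose by 3.41 ± 0.55 (adjusted p = 0.0014). The Bcl-2 family gene Buffy fell by 2.34 ± 0.61 (adjusted p = 0.030), and was called only without wts replicate 2 or wts replicate 3. The pro-apoptotic genes rpr (-0.05 ± 0.35, adjusted p = 0.97) and hid (-0.56 ± 0.19, adjusted p = 0.097) did not pass. Eiger (egr), the tumour necrosis factor of the fly, fell by 0.85 ± 0.18 (adjusted p = 0.0079), from 8.42 to 9.46 CPM to 4.89 to 5.10 CPM. Its receptor gene wengen (wgn) fell by 0.49 ± 0.07 (adjusted p = 0.0003). These were the 2 falls among 18 JNK pathway genes, of which 0 rose (median 0.00); the targets puc (0.10 ± 0.41, adjusted p = 0.95) and Mmp1 (0.51 ± 0.18, adjusted p = 0.11) did not pass.

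The largest rises included the gene of lactate dehydrogenase, but most other glycolysis genes did not pass. Lactate dehydrogenase (ImpL3, also called Ldh; 3L, 6259105 to 6262694) measured 10.5, 61.1 and 81.6 CPM in wts discs, against 577, 547 and 338 CPM in cic wts discs. Even the lowest cic wts library, replicate 3, was several times above the highest wts library, and the gene rose by 3.25 ± 0.60 (adjusted p = 0.0033). ImpL2, a secreted protein that binds insulin-like peptides and dampens insulin signalling (3L, 4224006 to 4236147), measured 134, 177 and 288 CPM against 918, 1040 and 443 CPM (2.00 ± 0.36, adjusted p = 0.0030). For both genes cic wts replicate 3 was the lowest of its group and wts replicate 3 the highest of its own. The HIF prolyl hydroxylase gene Hph rose by 0.83 ± 0.19 (adjusted p = 0.015), a call lost without wts replicate 1, cic wts replicate 1 or cic wts replicate 2. Hexokinase A (Hex-A) rose by 0.45 ± 0.11 (adjusted p = 0.022), and was called only when cic wts replicate 3, of the 6 libraries, was left out. These and ImpL3 were the 3 rises among 18 glycolysis genes, of which 0 fell; the other 15 ranged from -0.14 to 0.27, and the median was 0.04. Only ImpL3 was called without wts replicate 1, cic wts replicate 1 or cic wts replicate 2. ImpL2 was the only call among 11 hormone genes (median 0.09), against 6.9% called over all genes tested.

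Of 29 ecdysone response genes 2 rose and 2 fell, with a median of -0.18. Over all genes tested 2.89% rose and 4.01% fell. The rises in the list were ImpL2 and ImpL3. The metamorphosis factor gene Eip93F stood at 1.54, 2.18 and 1.73 CPM in wts discs, against 0.387, 0.469 and 0.520 CPM in cic wts discs and fell by 1.97 ± 0.46 (adjusted p = 0.016). At day 5 it was lower still in both groups, at 0.261 and 0.326 CPM. Eip71CD, a methionine sulfoxide reductase gene, fell by 0.57 ± 0.14 (adjusted p = 0.022). Among 7 temporal identity genes, Imp, an RNA-binding protein of early stages in neuroblasts, rose by 0.48 ± 0.14 (adjusted p = 0.045), and its late counterpart Syp fell by 0.51 ± 0.12 (adjusted p = 0.020); the list's median was -0.15. None of these 4 calls was robust: Eip93F was lost without wts replicate 2 or any cic wts library, Eip71CD without wts replicate 1 or cic wts replicates 1 or 3, Syp without wts replicate 2 or cic wts replicates 1 or 3, and Imp without any library other than wts replicate 2.

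Of 31 cuticle genes of the Cpr family, 7 fell, 0 rose and 24 did not pass. Of those 24, 8 were above 0, up to 1.81; the median of the 31 was -0.54, and the count was 7 whichever library was left out. Cpr64Aa (3L, 4207838 to 4209178) measured 131, 59.6 and 57.2 CPM in wts discs, against 5.62, 4.18 and 2.76 CPM in cic wts discs (-4.30 ± 0.31, adjusted p = 4.2e-07). It overlaps the gene CG43367, from whose reads it cannot be told apart where the counting ignored strand. Cpr51A measured 78.7, 89.8 and 65.9 CPM against 28.1, 17.7 and 35.3 CPM (-1.53 ± 0.27, adjusted p = 0.0028), and Cpr65Ec 21.9, 20.7 and 23.8 CPM against 5.42, 6.48 and 4.68 CPM (a fall by 2.00 ± 0.40, adjusted p = 0.0061). The groups were clear of each other for these genes. The other 4, Cpr100A, Cpr97Ea, Cpr72Ea and Cpr31A, stayed under 8 CPM in every library. At day 5, 2 of the 31 had fallen.

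Among matrix and surface genes more fell than rose, and most did not pass. Over all genes tested, too, more fell (4.01%) than rose (2.89%). Of 13 basement membrane genes 3 fell and 0 rose, with a median of -0.43: the metalloproteinase inhibitor gene Timp (-0.94 ± 0.16, adjusted p = 0.0020), laminin B1 (LanB1, -0.28 ± 0.06, adjusted p = 0.0066) and perlecan (trol, -0.68 ± 0.18, adjusted p = 0.035). The call for trol held only when wts replicate 3, of the 6 libraries, was left out. Of 30 cell surface and guidance genes 2 rose and 5 fell, with a median of -0.10. The leucine-rich repeat gene kek2 stood at 3.45, 3.28 and 2.60 CPM in wts discs, against 0.484, 0.188 and 0.416 CPM in cic wts discs (-3.08 ± 0.34, adjusted p = 3.9e-05). The netrin receptor gene unc-5 fell by 0.38 ± 0.06 (adjusted p = 0.0012) and beat-IIIc by 0.73 ± 0.11 (adjusted p = 0.00098). Dscam1 rose by 0.57 ± 0.10 (adjusted p = 0.0024) and capricious (caps), an adhesion gene of dorsal cells, by 0.45 ± 0.09 (adjusted p = 0.0051). The netrin gene NetA (-1.56 ± 0.43, adjusted p = 0.040) was called only without cic wts replicate 1, and the Slit receptor gene lea (-0.47 ± 0.13, adjusted p = 0.041) lost its call without any 1 of the 6 libraries. Without wts replicates 1 or 3, or cic wts replicates 2 or 3, the 5 falls became 3.

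Of 11 glypican and heparan sulfate genes 1 rose and 2 fell (median 0.01): Sulf1 (0.66 ± 0.15, adjusted p = 0.013) lost its call without wts replicate 2, cic wts replicate 1 or cic wts replicate 2, Hs6st fell by 0.50 ± 0.10 (adjusted p = 0.0064), and the other fall was dlp, lost without wts replicate 1. Of 20 septate junction genes 1 rose, crok, and 1 fell, the sodium pump gene Atpalpha (-0.48 ± 0.10, adjusted p = 0.0066). Over all genes tested 2.89% rose and 4.01% fell, the background for both lists. The septate junction median was 0.02, and crok (0.37 ± 0.09, adjusted p = 0.025) kept its call only without wts replicate 2 or cic wts replicate 3.

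The machinery of protein synthesis and several pathways gave no call with edgeR. None of 87 cytosolic ribosomal protein genes (median 0.08), 72 mitochondrial ribosomal protein genes (0.09), 19 Myc and nucleolar genes (0.02), 23 Wg pathway genes (-0.08), 23 polarity and adherens junction genes (-0.05), 15 proneural genes (-0.11) or 7 Hox genes (-0.83) passed. The Hox gene Ubx had groups that did not overlap, at 8.86 to 19.0 CPM against 3.92 to 6.76 CPM (-1.46 ± 0.53, adjusted p = 0.12). In 22 genes of the Xrp1 and Minute stress response 1 rose, upd3 (lost without any 1 of the 6 libraries), and 1 fell, crc (-0.32 ± 0.08, adjusted p = 0.021; lost without wts replicates 2 or 3 or cic wts replicates 2 or 3), with a median of 0.11, and Xrp1 itself did not pass (0.08 ± 0.19, adjusted p = 0.89). A small number of further falls came from 32 proteasome genes (Rpt3R, median 0.04), 17 heat shock genes (Hsp67Ba, median -0.12), 15 antimicrobial and Toll/Imd genes (PGRP-SA, median -0.21) and 24 glutathione S-transferase genes (GstE12 and GstS1, median 0.09). Over all genes tested 2.89% rose and 4.01% fell, the background for these lists. PGRP-SA and GstS1 lost their calls without wts replicate 1, cic wts replicate 1 or cic wts replicate 2, and GstS1 also without wts replicate 3.

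Some of the largest differences were of genes close to absent in one genotype. The 12 largest rises, among called genes without overlap and with at least 5 CPM in a group, were SK, ImpL3, CG4562, MRE16, CG7054, CG31262, Sirup, CG32512, aos, ImpL2, CG32354 and CG9747. SK, a calcium-activated potassium channel gene (X, 5340236 to 5405138), measured 0.159, 0.312 and 0.385 CPM in wts discs, against 45.4, 50.6 and 80.0 CPM in cic wts discs (7.64 ± 0.46, adjusted p = 5e-08). Its day 5 means were 7.62 CPM in control, 7.63 CPM in cic, 0.266 CPM in wts but 30.4 CPM in cic wts discs, so the wts libraries were the low ones on both days. CG7054 was likewise low only in wts libraries, at day 9 with 4.73, 1.56 and 1.30 CPM against 16.8, 16.7 and 20.5 CPM in cic wts discs (2.84 ± 0.35, adjusted p = 0.00015). Those cic wts values lay around its day 5 control mean of 17.8 CPM, whereas SK in cic wts discs lay above its own control mean. The calls for Sirup (2.30 ± 0.51, adjusted p = 0.012) and CG9747 (1.92 ± 0.41, adjusted p = 0.0093) were lost without wts replicate 1, and that for Sirup also without cic wts replicate 2.

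The 12 largest falls by the same rule were ppk13, CG33509, TotA, Cpr100A, topi, Whamy, Cpr64Aa, CR45923, CG12911, gd, CR31781 and cac. The ion channel family gene ppk13 (2L, 21086790 to 21088751) measured 31.1, 39.9 and 33.9 CPM in wts discs, against 0.194, 0.0469 and 0.104 CPM in cic wts discs (-8.18 ± 0.24, adjusted p = 6.4e-12). At day 5 it stood at 55.1 CPM in wts discs and at a mean of no more than 0.173 CPM in the other 3 groups, so it was high only in wts libraries. The adjacent gene CG33509 had 894 counts in the 3 wts libraries and 3 in the 3 cic wts libraries, a ratio of 310.0 (95% interval 105.7 to 1506.0, exact, counting error only). The noncoding gene CR45923 (2R, 4621118 to 4622481) was likewise high only in wts libraries, at 39.0, 53.5 and 45.2 CPM against 2.28, 3.29 and 2.13 CPM (-4.15 ± 0.24, adjusted p = 2.6e-08).

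The calcium channel gene cac and its neighbour gd were highest in wts replicate 1, at 69.3 and 15.6 CPM against at most 21.3 and 3.23 CPM in the other wts libraries; the call for gd was lost without that library, and cac kept its call in all 6 fits. The neighbours topi and Whamy were also highest there, and Whamy was lost without cic wts replicate 2. TotA, a stress-induced gene, rested on wts replicate 2 (23.6 CPM, against 0.266 and 1.35 CPM) and was lost without it or without any cic wts library.

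**Figure D5:**
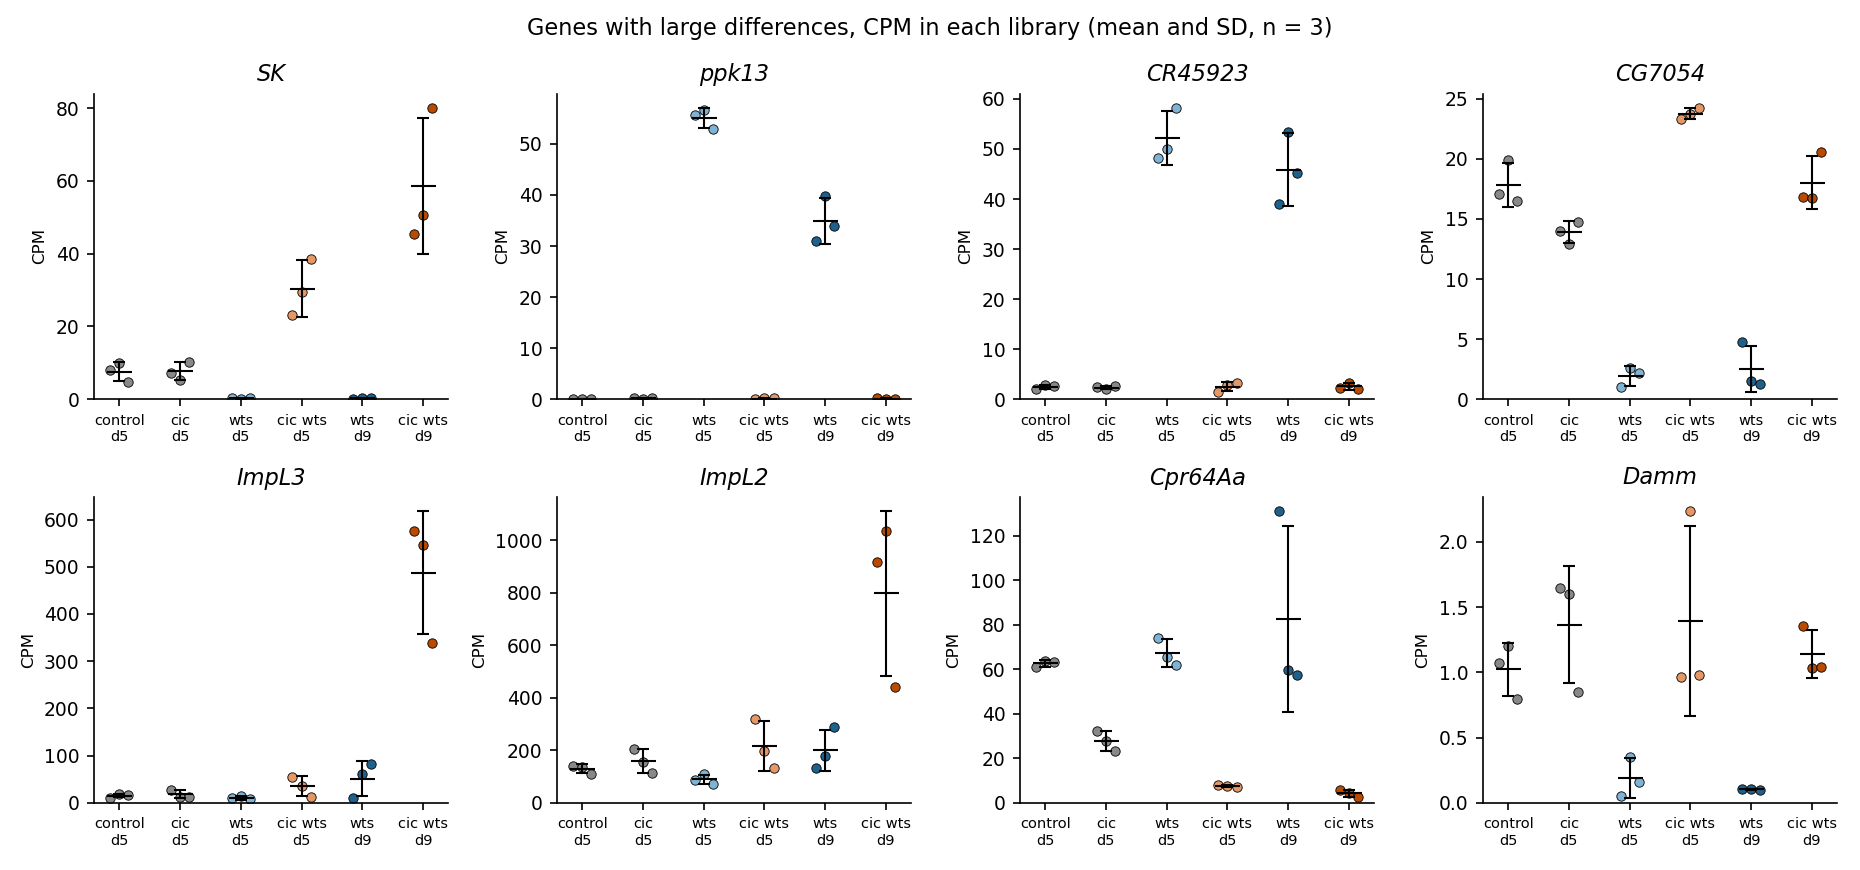
CPM (y axis, from 0) of 8 genes with large differences in each RNA-seq library of the 6 groups (x axis), with bars for mean and SD, n = 3. SK and CG7054 are low only in the wts groups (blue), ppk13 and CR45923 are high only there, and ImpL3 and ImpL2 are highest in cic wts discs at day 9 (dark orange).

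Called genes tended to lie beside others of the same direction. Of 360 falls with a position, 16.1% had a neighbouring tested gene that fell, against 7.73% of all genes tested, and of 259 rises 10.0% lay next to a rise, against 5.66%. By chromosome arm, the share called was 8.40% on 2L, 7.20% on 2R, 6.43% on 3L, 6.63% on the recombined arm 3R, 6.14% on X and 5.95% on chromosome 4. Differences between the 2 stocks on any arm were not tested. In these 6 libraries they cannot be told apart from loss of cic. Neighbours can also share reads: aos lies within CG33158, which fell by 0.84 ± 0.07 (adjusted p = 2.4e-06), CG4562 overlaps CG4686, which rose by 0.92 ± 0.13 (adjusted p = 0.00041), and MRE16, Sirup, CG32512 and CG32354 each overlap another gene, so without strand their counts are uncertain.

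Whether the effect of losing cic differed between day 9 and day 5 was tested directly. With edgeR no gene passed (0 called), while 593 genes (6.59%) had an unadjusted p under 0.05 and DESeq2 called 33 (0.367%). The smallest adjusted p was 0.13. Among the genes at that value, bnl stood at 8.95 ± 0.588 CPM in wts discs, against 7.63 ± 1.81 CPM in cic wts discs on day 5 (-0.23 ± 0.27, adjusted p = 0.76), and at 12.7 ± 0.519 against 45.3 ± 12.4 CPM on day 9, a difference between days of 2.07 ± 0.37. In day 5 discs not mutant for wts, bnl measured 48.2, 58.0 and 28.2 CPM in cic, against 18.5, 20.3 and 12.9 CPM in control discs. For vn the difference between days was -0.53 ± 0.09, and for kek2 -2.60 ± 0.47. For aos it was 0.07 (adjusted p = 0.96), for sty -0.01 (adjusted p = 1.0) and for pnt -0.04 (adjusted p = 0.99).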

How the data were processed

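RNA-seq counts of 18 libraries, 6 groups of 3, were used, and the 6 day 9 libraries were compared. The values are raw read counts per gene, as the authors deposited them in a table of all libraries. Per the submitters' processing notes, Bowtie2, TopHat2, HTSeq and DESeq2 were used with the dm6 build; versions, the role of each tool and the strand setting are not stated there. Of 17373 genes, 2937 had 0 counts throughout; 12766 matched a release 6 RefSeq gene table by symbol, 4449 by synonym and 158 not at all. Totals were 14201662 to 26217144 counts.

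The test was the quasi-likelihood F test of edgeR 4.0.16 (R 4.3.3), with TMM scaling, the filterByExpr filter and 1 coefficient a group over all 18 libraries, which left 9004 genes; the common biological coefficient of variation was 0.185. DESeq2 1.42.0 was an alternative. Benjamini-Hochberg adjustment ran over all genes tested, and standard errors were derived from F. CPM were computed here with TMM-scaled library sizes. No replicates held identical values. The procedure was tested on simulated data.

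The members, the 37 gene lists and the 9 marker lists were chosen with earlier results of these data known, so their counts are descriptions and no set was tested. The gene named Cpr, a P450 reductase, was taken out of the cuticle list, which had been set by name prefix. Genes named were cic, wts, the 12 largest rises and falls as defined in the text, all tested members of the Ras/EGFR output and Yki target lists, and up to 6 members of each other list, called genes first; further members of the notum, Dpp, cell cycle and cell surface lists, and others named, such as rpr, hid, puc, Ubx, spi and twi, were chosen after their values were seen. Promoter and protein sequences were not used here.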

Additional observations from a re-analysis of the deposited data

How the results depend on the processing

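The count of 621 genes was 612 with RLE size factors, 620 with total-count scaling, 516 without a filter on low counts, 915 with DESeq2 and 863 with only the compared libraries in the fit. It ranged from 307 to 482 when 1 library was left out. With the replicate block it was 603. Same-numbered libraries had correlations of 0.017, 0.185 and -0.134 of their deviations from the group mean, against -0.187 to 0.134 for the other pairs. With 3 libraries a group these values cannot decide whether same-numbered libraries shared a preparation, and the labels give only the number. For the difference between days, edgeR called 0 genes under both other scalings, without the filter, with only the compared libraries and in all 12 fits that left out 1 library, but DESeq2 called 33 and the replicate block 3.

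Of 138 genes followed, 123 were called. All 123 kept their call with DESeq2, 120 with RLE size factors, 121 with total-count scaling, 116 without the filter and 118 with the replicate block. With only the compared libraries in the fit, 116 kept their call and 6 lost it. Leaving out 1 library lost 191 of 738 such calls. The value of ex ranged from -0.06 to 0.01 when 1 library was left out and turned positive without wts replicate 2, and ex passed in no fit. With 3 libraries a group, small differences and genes of few counts were the least certain.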

Other observations

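The genes here were chosen after their values were seen. Further genes fell beside the patterning genes. The gene scarface (scaf), a serine protease homologue, measured 350, 390 and 416 CPM in wts discs, against 87.1, 73.5 and 64.1 CPM in cic wts discs (-2.36 ± 0.17, adjusted p = 5e-07, edgeR). Larval translucida (ltl), a secreted leucine-rich repeat protein, measured 672, 417 and 440 CPM against 106, 111 and 101 CPM (-2.27 ± 0.24, adjusted p = 2.6e-05). The peptidase gene Ance fell by 1.39 ± 0.19 (adjusted p = 0.00044), the homeobox genes aristaless (al) by 1.35 ± 0.22 (adjusted p = 0.0014) and C15 by 1.98 ± 0.21 (adjusted p = 2.6e-05), and the type II BMP receptor gene wishful thinking (wit) by 1.32 ± 0.12 (adjusted p = 4e-06). The laminin alpha chain gene wing blister (wb) fell by 1.15 ± 0.20 (adjusted p = 0.0023) and the integrin alpha PS2 gene inflated (if) by 0.58 ± 0.11 (adjusted p = 0.0035). At day 5 neither wb (-0.19, adjusted p = 0.72) nor if (0.20, adjusted p = 0.41) passed. In the direct test between days no gene passed with edgeR, so a difference between days is not shown for either.

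Some single genes outside the cell cycle list rose. The HMG-box protein gene HmgD measured 1330, 1500 and 1530 CPM in wts discs, against 1980, 2110 and 2180 CPM in cic wts discs (0.52 ± 0.09, adjusted p = 0.0021). The histone variant gene His2Av (0.45 ± 0.08, adjusted p = 0.0019), the polymerase gene DNApol-epsilon255 (0.47 ± 0.08, adjusted p = 0.0012), the replication transcription factor gene Dref (0.35 ± 0.06, adjusted p = 0.0031), the nucleoside kinase gene dnk (0.57 ± 0.08, adjusted p = 0.00061) and the lamin gene Lam (0.41 ± 0.07, adjusted p = 0.0030) rose too. So did hibris (hbs), an immunoglobulin-family adhesion protein of myoblasts, at 39.5, 28.6 and 31.8 CPM against 91.4, 87.2 and 85.1 CPM (1.40 ± 0.23, adjusted p = 0.0014), and Lrt, a leucine-rich repeat protein of tendon cells (1.14 ± 0.12, adjusted p = 3.1e-05). The GATA factor gene grain (grn) rose by 1.25 ± 0.20 (adjusted p = 0.0014). All of these were called in each of the 6 fits that left out 1 library.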
